A study of Mus musculus with 9 samples.

Results

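The genes described here encode the 4 classical families of axon guidance cues with their receptors: semaphorins with plexins and neuropilins, ephrins with Eph receptors, Slits with Robo receptors, and netrins with Dcc and Unc5 receptors. They were taken from mouse Affymetrix arrays by gene symbol: every probe set with a single symbol of Sema3 to Sema7, a plexin, Nrp1 or Nrp2, an Eph receptor or ephrin, Robo1 to Robo4, Slit1 to Slit3, a netrin, Unc5a to Unc5d or Dcc. This gave 152 of the 45101 probe sets, which carried 69 gene names. One of the 69, Plxna4os1, is an antisense transcript, and its probe set read 2.17 in the mean of each group. Every group came from a single cell line, Ainv15 mouse embryonic stem (ES) cells with a doxycycline-inducible Cdx2 construct tagged with V5. Cdx2 is a homeobox transcription factor of the posterior body. One group was ES cells at day 0, grown over mitomycin-C-treated fibroblasts with LIF, with 3 arrays. The second group was motor neuron cultures at day 5: embryoid bodies given 1 µM all-trans retinoic acid and 0.5 µM of a hedgehog agonist from day 2, with 3 arrays. The third group had the same retinoid and hedgehog treatment plus 2 µg/ml doxycycline and 100 ng/ml basic FGF from day 3, and was also collected at day 5, with 3 arrays. It is called the Cdx2/FGF cultures below. Doxycycline, Cdx2 and FGF came together, so their effects cannot be told apart. The protocol also has a wash after doxycycline and a second, lower dose of retinoic acid and hedgehog agonist, without saying which cultures had it. The labels name no separate culture for each of the 3 arrays, so a p-value here weighs a difference against array spread alone, which may be technical.

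As background, growing axons are steered by secreted or membrane-bound cues that attract or repel the growth cone according to the receptors it carries. Semaphorins of class 3 are secreted and signal through neuropilins paired with plexins, while most other classes are membrane proteins that bind plexins directly. Ephrins and Eph receptors signal between touching cells and guide motor axons into the limb. Netrins and Slits are secreted by the floor plate of the spinal cord, and Dcc, Unc5 and Robo receptors read them in commissural and motor axons. The same molecules act outside the nervous system, in mesenchyme, blood vessels and neural crest.

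Values were taken as log2 expression levels, with a lower limit of 2.165. A probe set was tested where it exceeded 4 on at least 3 of the 9 arrays. Arrays of a group correlated over all probe sets at 0.963 to 0.974 (ES), 0.995 to 0.997 (motor neuron) and 0.998 (Cdx2/FGF). Of 2 Cdx2 probe sets, the first read 2.17 on each ES array, 2.17, 2.17 and 2.24 without induction, and 8.27, 8.99 and 8.59 after it. The second read 2.7, 2.63 and 4.56, then 2.63 on each array, and 6.39, 7.11 and 6.6 after induction. The ES arrays stood apart in amplification controls: the 3' minus 5' difference of beta-actin was 1.87 to 2.3 on ES arrays and -0.1 to -0.01 on the day 5 arrays, and that of the transferrin receptor was 5.59 to 6.86 and -1.74 to -1.39. The control for 18S ribosomal RNA read 5.86 to 6.6 on ES arrays and 15.32 to 15.51 on the day 5 arrays. RNA preparation or amplification and stage therefore cannot be told apart in any comparison with ES cells. Cell type markers also moved. Between the day 5 groups, 5 of 5 tested motor neuron markers (of 8 listed) and 9 of 10 markers of post-mitotic neurons were called lower in the Cdx2/FGF cultures, and 6 of 7 tested markers of mesoderm and mesenchyme (of 10 on the array) were called higher. The motor neuron markers Chat and Slc5a7 lay at the lower limit on every array, as did the early mesoderm markers Tbx6 and Msgn1. Summed over its list, the level of mesoderm and mesenchyme markers was 6 to 7.16 on motor neuron arrays, 14.33 to 14.4 on Cdx2/FGF arrays and 10.68 to 14 on ES arrays. The sum of neuron markers was 16.4 to 16.82, 13.33 to 13.53 and 13.38 to 13.71 in the same order, and that of motor neuron markers 13.19 to 13.78, 9.94 to 10.38 and 6.06 to 6.53. Fibroblast markers summed to 10.41, 12.92 and 13.34 on ES replicates 1, 2 and 3, to 5.73 to 5.77 on motor neuron arrays and to 9.31 to 9.63 on Cdx2/FGF arrays, with Lum not above 2.19 on any array. The part of these cell types in the results below was not tested. In such bulk samples, fewer cells of a type and less RNA per cell cannot be told apart.

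Of the 69 genes, 48 were tested through 86 probe sets. The other 21 genes could not be compared: 18 were under 4 on every array, among them Robo2, Robo3, Robo4, Unc5c, Unc5d, Ntn3, Ntn5, Plxna4, Plxnd1, Sema3f and Sema3g. The remaining 3, Sema4a (mean 5.3 in ES cells), Sema7a (4.37 in motor neuron cultures) and Epha10 (3.94 in motor neuron cultures), exceeded 4 on too few arrays. A gene is represented by whichever of its probe sets had the highest 9-array mean. It was called where limma gave a Benjamini-Hochberg adjusted p under 0.05, over all 21557 probe sets tested, and the log2 difference was at least 1. Between the 2 day 5 groups, 9 of the 48 genes were higher and 12 lower in the Cdx2/FGF cultures, and 27 had no call. Over all 10912 genes tested, 11.1% were called higher and 8.53% lower, and the median difference was 0.04, against -0.15 for the 48. Counted by probe set, 21 of 86 were higher and 21 lower, with 10.9% and 8.55% over all probe sets. Epha3, Epha7, Dcc and Sema6c exceeded 4 in a single group and so had to differ between groups to be tested. Without such genes, 8 of 44 were higher and 9 lower, beside 11% and 7.87% of all genes filtered alike. The same holds for 7 probe sets other than the one of highest mean: 1 each of Dcc, Ntn4, Sema3a, Sema3c and Sema3d, and 2 of Plxnc1. Their differences are not given as support below. Without all 11, 18 of 75 probe sets were higher and 13 lower, beside 10.7% and 7.45%. The genes Sema3a and Sema4f exceeded 4 on 3 arrays of 1 day 5 group, on 0 of the other and on 1 ES array. They too passed the filter only through the group where they were high. Both were kept among the 44 genes, here and in the comparison with ES cells below. By role, 4 of 27 ligand genes were higher and 7 lower, and 5 of 21 receptor genes were higher and 5 lower.

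**Figure D1:**
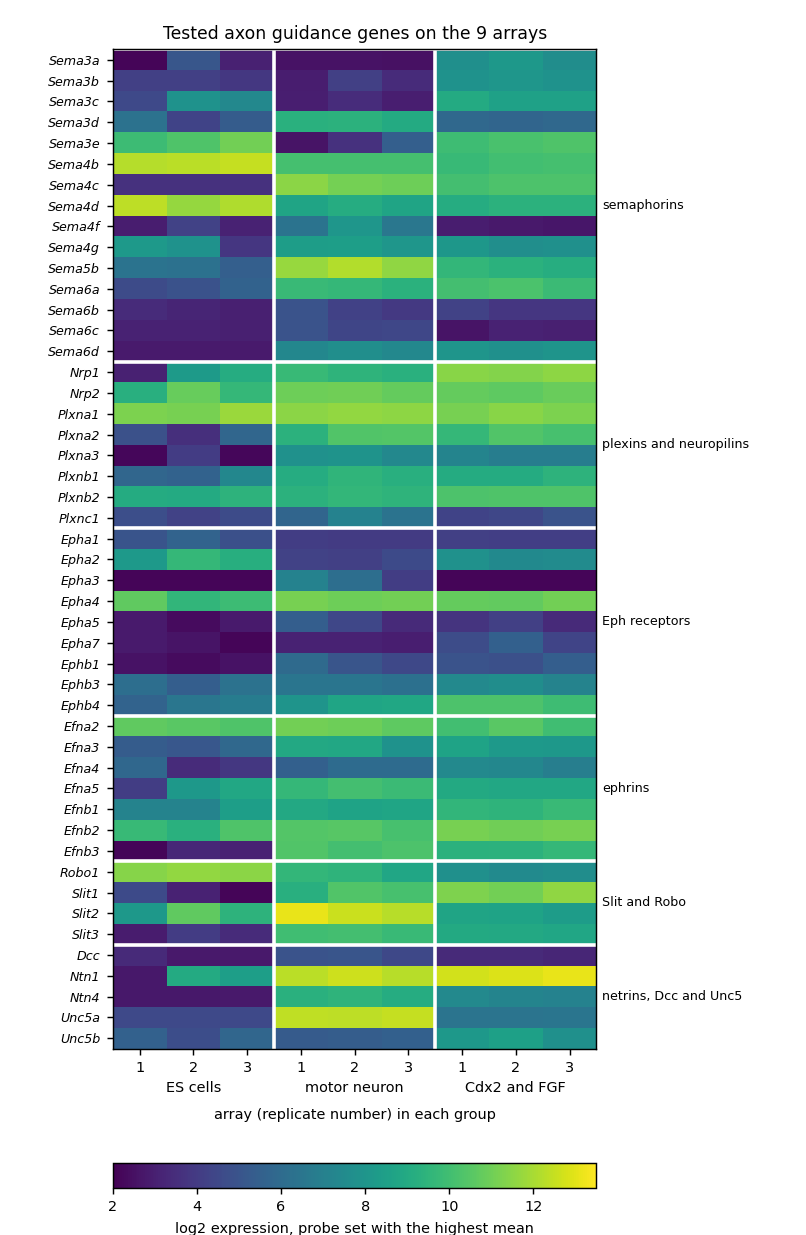
Log2 expression of the 48 tested axon guidance genes on the 9 arrays, grouped by family, with the probe set of highest mean for each gene. Columns are the replicates of ES cells, motor neuron cultures (MN) and Cdx2/FGF cultures (CF): Sema3e is bright in ES and CF and dim in MN, while Unc5a is bright in MN.

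The class 3 semaphorins held the 4 largest rises between the day 5 groups among the 48 genes. Of 7 on the array, 5 were tested: Sema3e, Sema3c, Sema3a and Sema3b rose in the Cdx2/FGF cultures and Sema3d fell, with a median difference of 5.3 on the log2 scale. Over all genes tested, the shares called higher and lower were 11.1% and 8.53%. Sema3e, a secreted ligand that binds plexin D1 directly, read 2.59, 3.65 and 5.46 in motor neuron cultures against 9.95, 10.22 and 10.34 in the Cdx2/FGF cultures. Every array of the second group lay above every array of the first, and the motor neuron arrays were far apart from one another. The rise was at least 51.3-fold (log2 difference 6.27 with SE 0.63, adjusted p 9.07e-05), taking values under 4 as 4. Its other 3 probe sets gave differences of 6.58, 6.39 and 5.89, all called. Sema3c, a ligand of both neuropilins that is known for its role in cardiac neural crest, read 2.95, 3.44 and 2.95 against 9.03, 8.6 and 8.59. The groups did not overlap, and the rise was at least 26.7-fold (log2 difference 5.63 with SE 0.73, adjusted p 0.000438). Sema3b read 2.94, 4.17 and 3.41 against 7.85, 8.02 and 7.84. All Cdx2/FGF arrays were higher, by at least 14.4-fold (log2 difference 4.39 with SE 0.31, adjusted p 9.76e-06). Its other probe sets were not tested, and their means on Cdx2/FGF arrays were 4.59 and 2.28.

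Sema3a, the founding repellent of the class and a ligand of neuropilin 1, read 2.56, 2.56 and 2.5 in motor neuron cultures against 7.71, 8.15 and 7.64 in the Cdx2/FGF cultures. The 3 motor neuron values were near the lower limit, and the groups were far apart. The rise was at least 14.3-fold (log2 difference 5.3 with SE 0.61, adjusted p 2e-04). Sema3a exceeded 4 on 3 Cdx2/FGF arrays, 1 ES array and 0 motor neuron arrays. It was therefore tested only because the Cdx2/FGF arrays were high, and its difference is also the class 3 median given above. Sema3d went the other way, with 9.3, 9.37 and 9.04 in motor neuron cultures against 5.9, 5.74 and 5.9 in the Cdx2/FGF cultures. It fell 10.5-fold with no overlap (log2 difference -3.39 with SE 0.43, adjusted p 0.000398). Sema3a, Sema3d and the further genes outside the 3 best ranked of each family are given because of values already seen. Between the day 5 groups, markers of mesoderm, mesenchyme and fibroblasts were higher where Sema3a, Sema3b, Sema3c and Sema3e were (sums given above). Of 9 fibroblast markers, 5 were tested and 3 called higher, and the list median was 2.17 in both groups. On ES arrays fibroblast markers summed to 10.41 to 13.34, and mesoderm and mesenchyme markers to 10.68 to 14. Means of these semaphorins there were 3.43, 4.07, 6.58 and 10.41, in the order named. Neuron markers were lower on the same Cdx2/FGF arrays as Sema3d. Any link was not tested.

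**Figure D2:**
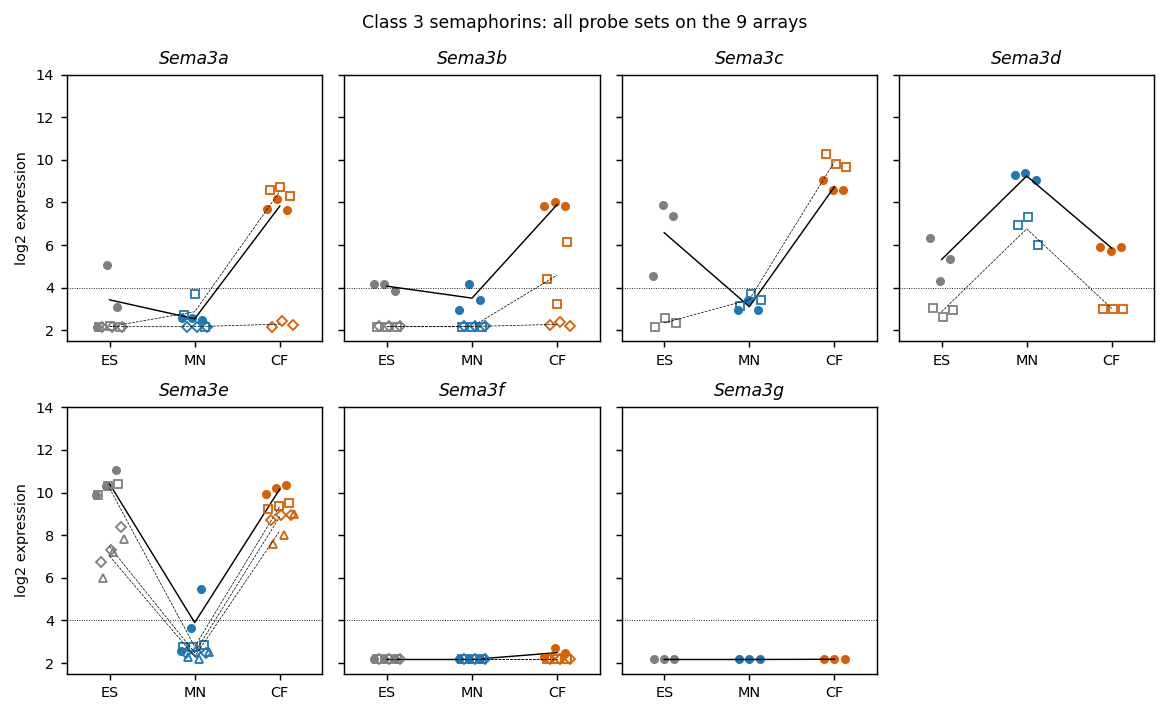
Log2 expression of all 7 class 3 semaphorins on the 9 arrays (ES, MN, CF), 1 marker per array, with filled markers for the probe set of highest mean and open markers for other probe sets, lines joining group means and a dotted line at the test limit of 4. Sema3a, Sema3b, Sema3c and Sema3e lie higher in CF than in MN, Sema3d lies lower, and Sema3f and Sema3g stay under 4.

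Sema3d, Sema3a, Sema3e and Sema3c lie on chromosome 5 in this order, among other protein-coding genes. Of the genes between Sema3e and Sema3c, Cacna2d1, a calcium channel subunit, fell at least 32.8-fold in the Cdx2/FGF cultures (adjusted p 7.44e-06), and Pclo and Hgf were not tested. Cd36, next to Sema3c on the far side, rose at least 6.38-fold (adjusted p 4.91e-07); it exceeded 4 in the Cdx2/FGF cultures alone and so had to differ to be tested. The 250 bases before the listed start of each of these semaphorins are shown because 4 genes of 1 family within this region moved in both directions. They come from RefSeq on GRCm38.p6, plus strand, at chr5:12382916-12383165 for Sema3d, chr5:13396534-13396783 for Sema3a, chr5:14025026-14025275 for Sema3e and chr5:17574566-17574815 for Sema3c. Capitals mark matches to TTTATNG, a Cdx-type homeobox sequence, or AGGTCA, the half-site of retinoic acid receptors, on either strand; the motifs do not overlap here.
Sema3d: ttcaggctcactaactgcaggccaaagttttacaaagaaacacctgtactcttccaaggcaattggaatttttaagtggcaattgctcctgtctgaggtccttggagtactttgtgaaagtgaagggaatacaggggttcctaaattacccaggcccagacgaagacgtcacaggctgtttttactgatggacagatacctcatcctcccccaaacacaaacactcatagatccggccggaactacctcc
Sema3a: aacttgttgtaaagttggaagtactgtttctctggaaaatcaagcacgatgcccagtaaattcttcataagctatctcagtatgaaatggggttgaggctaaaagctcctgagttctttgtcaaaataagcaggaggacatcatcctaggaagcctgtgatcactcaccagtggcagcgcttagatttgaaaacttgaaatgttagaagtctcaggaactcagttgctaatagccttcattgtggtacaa
Sema3e: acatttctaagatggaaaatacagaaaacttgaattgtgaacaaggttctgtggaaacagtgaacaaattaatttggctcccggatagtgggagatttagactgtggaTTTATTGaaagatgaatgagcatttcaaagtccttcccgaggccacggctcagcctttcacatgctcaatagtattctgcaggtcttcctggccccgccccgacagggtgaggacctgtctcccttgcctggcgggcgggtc
Sema3c: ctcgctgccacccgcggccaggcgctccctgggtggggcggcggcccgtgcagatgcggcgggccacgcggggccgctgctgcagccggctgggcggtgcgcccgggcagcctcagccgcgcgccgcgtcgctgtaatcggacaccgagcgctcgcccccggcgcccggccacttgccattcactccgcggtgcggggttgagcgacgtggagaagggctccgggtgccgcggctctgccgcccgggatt
The only match was 1 TTTATNG in Sema3e. Of all 32851 promoters in the table, 9.81% held TTTATNG and 14% held AGGTCA, and of the 74 promoters of 58 guidance genes 4 and 11 did. The Sema3c window stood apart in composition, with 78.4% G and C and 39 CpG, against 46.8%, 40.8% and 48% G and C and 4, 2 and 7 CpG for Sema3d, Sema3a and Sema3e. The medians over all promoters were 52.4% and 6 CpG. A match is a description of these letters and names neither a binding site nor a cause.

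Of the other semaphorins, 10 of 13 were tested, 3 fell in the Cdx2/FGF cultures, 0 rose, and the median difference was -0.41. Among all genes tested, 8.53% were called lower and 11.1% higher. Differences were above 0 in 3 of the 10, the highest being 0.46 for Sema4d. Sema4f, a transmembrane semaphorin, read 6.37, 8.03 and 6.56 in motor neuron cultures against 2.92, 2.79 and 2.7 in the Cdx2/FGF cultures. It fell at least 7.94-fold with no overlap (log2 difference -4.19 with SE 0.48, adjusted p 0.000209). Sema4f exceeded 4 on 3 motor neuron arrays, 1 ES array and 0 Cdx2/FGF arrays, so it was tested only because the motor neuron arrays were high. Its probe set is of the x_at kind, which can bind related transcripts, and the other probe set of the gene was not tested, with means of 3.71 and 2.25. Sema5b, a repellent with thrombospondin repeats, read 11.72, 12.19 and 11.58 against 9.63, 9.33 and 9.17. This fall was 5.48-fold (log2 difference -2.45 with SE 0.28, adjusted p 0.00021), and the groups did not overlap. Sema6c read 4.94, 4.41 and 4.47 against 2.62, 3.12 and 3.03, a fall of at least 1.52-fold (adjusted p 0.000463). With values under 4 raised to 4 its difference was -0.61 and it was no longer called. Sema4c, which is a plexin B2 ligand, differed by -0.97 and Sema6a by 0.44, without a call.

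Among the other secreted ligands, Slit2, Slit3 and Ntn4 fell and Slit1 and Ntn1 were not called. Slit2, a floor plate and motor column repellent, read 13.13, 12.59 and 12.27 in motor neuron cultures against 8.71, 8.66 and 8.35 in the Cdx2/FGF cultures. The Cdx2/FGF arrays were all lower, by 17.1-fold (log2 difference -4.09 with SE 0.54, adjusted p 0.00048), and a second probe set gave -4.48. Slit3 read 9.97, 10.08 and 9.78 against 8.99, 8.92 and 8.8. The groups were close but did not overlap, and the fall was 2.06-fold (log2 difference -1.04 with SE 0.3, adjusted p 0.0275). It was no longer called when any 1 motor neuron or Cdx2/FGF array was left out, with differences of -1.12 to -0.97. Slit1 read 9.27, 10.39 and 10.15 against 11.27, 11.06 and 11.6. These groups also did not overlap, and the difference of 1.38 (SE 0.56) had an adjusted p of 0.0982, while a second probe set was called at 2.16.

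Ntn4, a netrin related to laminin beta chains, read 9.29, 9.47 and 9.11 in motor neuron cultures against 7.41, 7.21 and 7.08 in the Cdx2/FGF cultures. It fell 4.16-fold without overlap (log2 difference -2.06 with SE 0.21, adjusted p 9.57e-05). Ntn1, the classical floor plate attractant, read 12.31, 12.63 and 12.25 against 12.71, 12.9 and 13.14. The groups did not overlap, yet the difference was 0.53 (SE 1.3, adjusted p 0.849). The SE of the shared fit takes in the ES arrays, on which Ntn1 read 2.75, 9.03 and 8.45, and a second probe set of Ntn1 was called at 1.05.

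**Figure D3:**
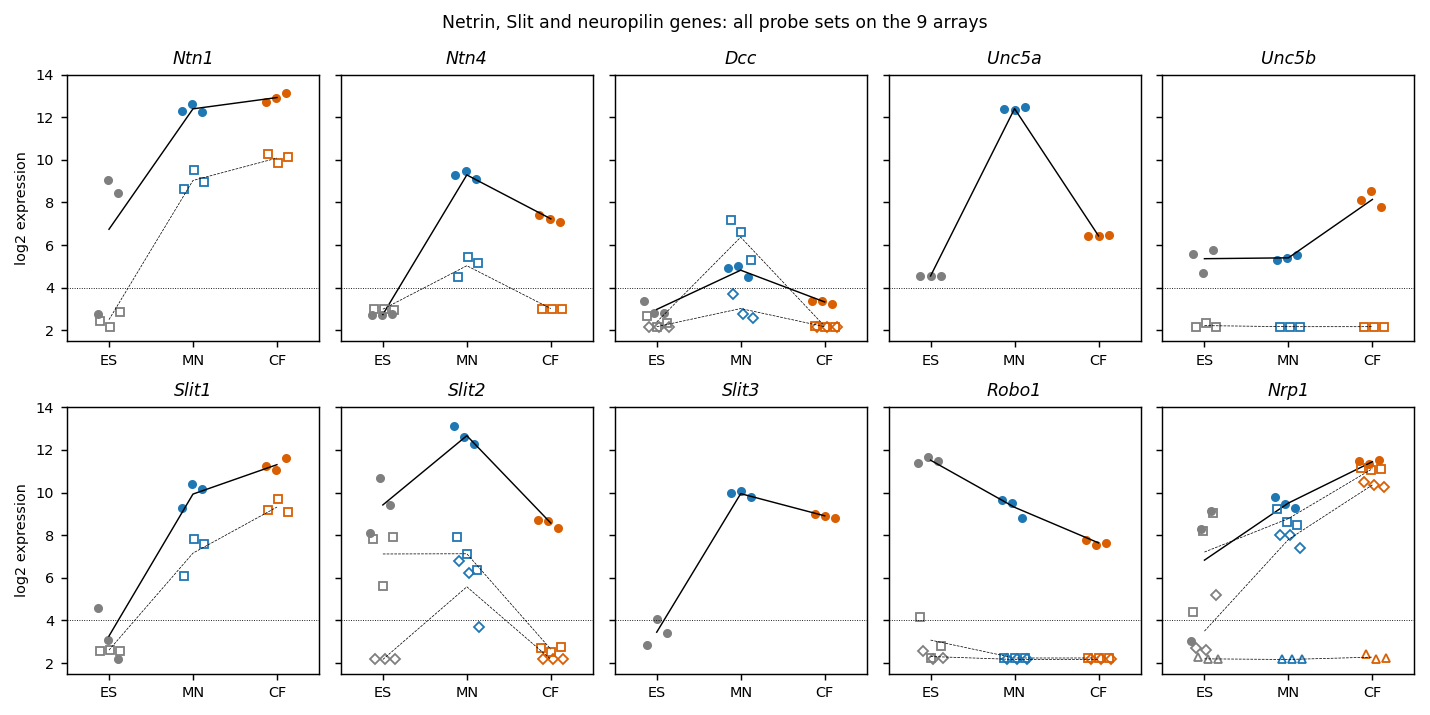
Log2 expression of Slit, Robo1, netrin, Dcc, Unc5 and Nrp1 genes on the 9 arrays (ES, MN, CF), 1 marker per array, with filled markers for the probe set of highest mean and open markers for others, lines joining group means and a dotted line at the test limit of 4. Slit2, Robo1, Ntn4, Dcc and Unc5a lie lower in CF than in MN, and Unc5b lies higher.

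Of 7 tested ephrins of 8, 0 were called between the day 5 groups, and their median difference was -0.23. Among all genes tested, 11.1% were called higher and 8.53% lower, and whether the ephrin count differed from these shares was not tested. The ephrin-A genes Efna2, Efna3 and Efna5 differed by -0.71, -0.23 and -0.95, and Efna4 by 1.36 with an adjusted p of 0.1. Efnb1, Efnb2 and Efnb3 differed by 0.83, 0.73 and -0.76. Second probe sets were called lower for Efna2 (-1.45) and Efna5 (-1.31), and 2 of the other 3 probe sets of Efnb2 were called higher (1.04 and 1.11), so that the absence of a call rests on the choice of probe set in these 3 genes.

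Plexins and neuropilins, the semaphorin receptors, had 1 call among 8 tested genes. Among all genes tested, 11.1% were called higher and 8.53% lower, and whether this family differed from these shares was not tested. Plxnc1, the receptor of Sema7a, read 5.74, 7.09 and 6.38 in motor neuron cultures against 4.31, 4.44 and 4.96 in the Cdx2/FGF cultures. All arrays of the second group were lower, by 3.56-fold (log2 difference -1.83 with SE 0.36, adjusted p 0.00451). Plxna1, Plxna2, Plxna3, Plxnb1 and Plxnb2 differed by -0.27, 0, -0.72, -0.1 and 0.83. Other probe sets of Plxna2 gave 1.07, -0.02 and -0.37, and only that at 1.07 was called (adjusted p 0.0132). Nrp1, the neuropilin that binds Sema3a, read 9.77, 9.47 and 9.29 against 11.46, 11.35 and 11.53. Its groups were tight and clearly apart, and the difference of 1.94 (SE 1.3) had an adjusted p of 0.313 in the fit over 9 arrays, which takes in ES values of 3.05, 8.28 and 9.14. Of its other tested probe sets, 1 was called, at 2.56. Nrp2 differed by -0.16, and 1 of its 2 other tested probe sets was called, at 1.1. Plxnd1, the receptor of Sema3e, was not tested.

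When the 6 day 5 arrays were fitted without the ES arrays, 12 of the 48 genes were called higher and 12 lower, beside 12.1% and 9.46% of all genes. The 3 added calls were Nrp1 (adjusted p 0.000314), Efna4 (adjusted p 0.00499) and Slit1 (adjusted p 0.0189), and 0 calls were lost. Leaving out ES replicate 1 alone also gave 12 higher and 12 lower, and array weights with all 9 arrays gave 12 and 13.

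Of 13 Eph receptors, 9 were tested. Epha2, Ephb4, Epha7 and Ephb3 rose in the Cdx2/FGF cultures and Epha3 fell. Of all genes, 11.1% were called higher and 8.53% lower. Epha2, an Eph receptor of epithelial cells and ES cells, read 4.29, 4.19 and 4.6 in motor neuron cultures against 7.8, 7.47 and 7.53 in the Cdx2/FGF cultures. The groups were far apart, with a rise of 9.46-fold (log2 difference 3.24 with SE 0.36, adjusted p 0.000164). Ephb4, the receptor of ephrin-B2 in veins, read 7.94, 8.75 and 8.86 against 10.29, 10.3 and 9.94. It rose 3.16-fold without overlap (log2 difference 1.66 with SE 0.36, adjusted p 0.00734). Of 8 endothelial markers listed, 2 were tested and 0 called between these groups. The list lay near the lower limit on the day 5 arrays, with a median of 2.17 and a sum of 5.17 to 5.18. On all arrays of a group, 2 of the 8 exceeded 4 in ES cells and 0 in either day 5 group. The part of endothelial cells in the level of Ephb4 was not tested. Epha3, a receptor of medial motor column neurons, read 7.08, 6.15 and 4.11 on the motor neuron arrays and 2.17 on each Cdx2/FGF array. The motor neuron arrays spread widely and all lay above the others, and the fall was at least 3.43-fold (log2 difference -3.61 with SE 0.61, adjusted p 0.00202). With values under 4 raised to 4 its difference was -1.78 and was not called (adjusted p 0.0561). The fall was at least 2.19-fold without motor neuron replicate 1 and at least 6.13-fold without motor neuron replicate 3. Epha7 read 3.09, 3.09 and 2.97 against 4.68, 5.52 and 4.35, a rise of at least 1.8-fold (adjusted p 0.00236), and raised values also ended this call. Ephb3 differed by 1.02 (adjusted p 0.0229), a call that was lost when any 1 motor neuron array or Cdx2/FGF replicate 1 or 2 was left out, with differences of 0.91 to 1.16 over all arrays left out in turn. Epha4, which steers limb-innervating motor axons, differed by -0.18.

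The receptors of netrins held the single largest fall among the 48 genes. Unc5a, a netrin receptor that mediates repulsion, read 12.38, 12.35 and 12.48 in motor neuron cultures against 6.41, 6.41 and 6.46 in the Cdx2/FGF cultures. The 2 groups were tight and far apart, and the fall was 62.9-fold (log2 difference -5.98 with SE 0.17, adjusted p 8.29e-08). Of its Cdx2/FGF values 2 were identical to 6 decimals, and so were its 3 ES values, so that part of the small spread of this probe set is not a measured one. Unc5b, a related receptor that also acts in blood vessels, read 5.29, 5.41 and 5.52 against 8.13, 8.52 and 7.79. It rose 6.69-fold with no overlap (log2 difference 2.74 with SE 0.32, adjusted p 0.000246), in the direction opposite to Unc5a. Dcc, the attractive netrin receptor of commissural axons, read 4.94, 5.02 and 4.5 against 3.37, 3.37 and 3.24. It fell at least 1.77-fold (log2 difference -1.49 with SE 0.23, adjusted p 0.00138). With values under 4 raised to 4 its difference was -0.82 (adjusted p 0.00518) and it was no longer called. Robo1, a Slit receptor, read 9.63, 9.49 and 8.81 in motor neuron cultures against 7.76, 7.52 and 7.64 in the Cdx2/FGF cultures. The groups did not overlap, and Robo1 fell 3.18-fold (log2 difference -1.67 with SE 0.22, adjusted p 0.000547). Its other 2 probe sets lay under 4 in the mean of every group, and the mean over all 3 gave -0.56 and no call. Between the day 5 groups, neuron markers were lower on the same arrays as Unc5a, Robo1 and Slit2. Mesoderm and mesenchyme markers were higher on the same arrays as Unc5b. On ES arrays the neuron sum was 13.38 to 13.71, with means of 4.55 for Unc5a, 9.42 for Slit2 and 11.52 for Robo1, its highest group. The mesoderm and mesenchyme sum there was 10.68 to 14, with a mean of 5.36 for Unc5b. How these markers bear on the genes was not tested.

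**Figure D4:**
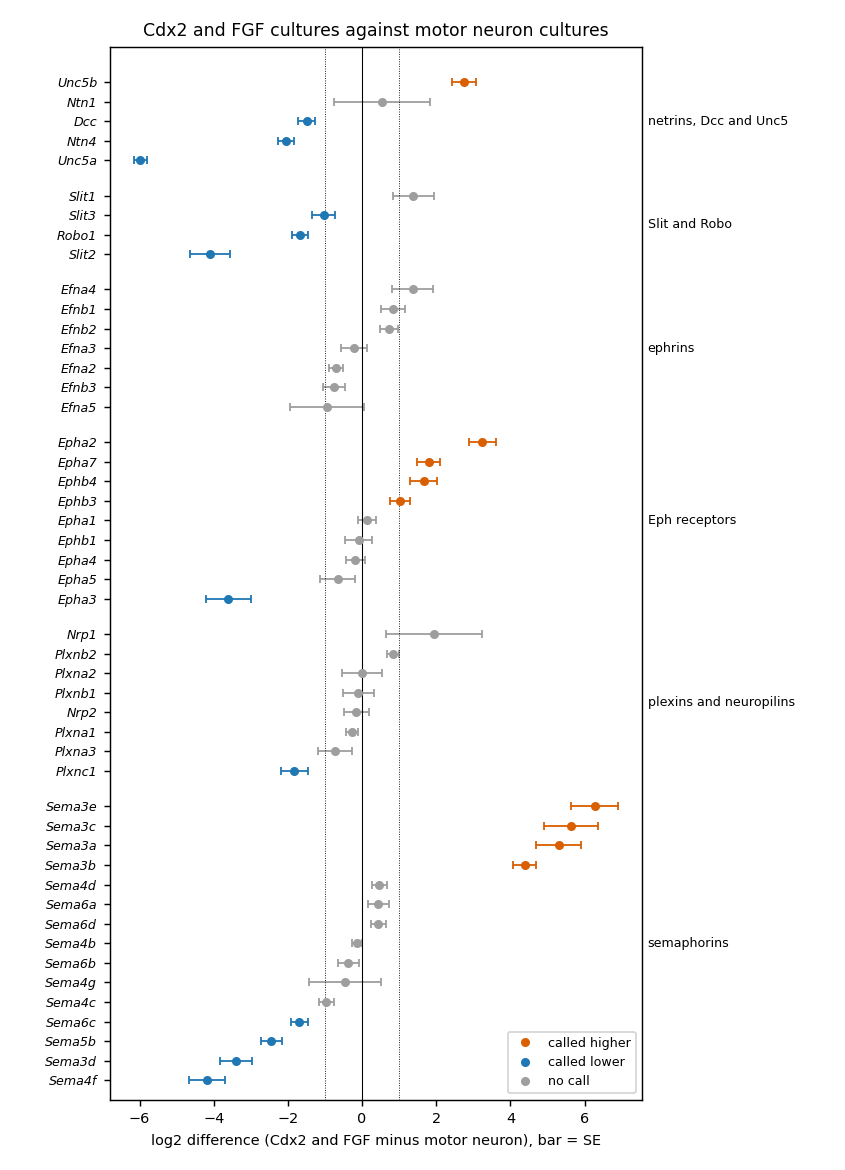
Log2 difference (Cdx2/FGF minus motor neuron cultures, x axis) of each of the 48 tested genes, by family, with the standard error of the limma fit as bars and the call as colour. The 4 class 3 semaphorins that rose lie between 4.39 and 6.27, Unc5a lies at -5.98, and no ephrin is called.

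From ES cells to motor neuron cultures most of the tested genes rose: 29 of 48 were higher, 7 lower and 12 had no call, with a median difference of 1.8. Over all genes tested, 25.9% were called higher and 30.7% lower, and the median was -0.08. Genes over 4 in 1 group only left out, 26 of 44 were higher and 7 lower, beside 26.5% and 27.7% of all genes. After median centring of each array the median of all genes became 0.35, the share of higher among all calls went from 45.8% to 58.4%, and 31 of the 48 genes were higher and 6 lower. Of the 27 ligand genes 18 were higher and 4 lower, and of the 21 receptor genes 11 were higher and 3 lower.

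Among semaphorins, 8 of 15 rose and 4 fell, beside 25.9% and 30.7% of all genes. Sema4c read 3.63 on each ES array and 11.51, 11.09 and 10.95 on the motor neuron arrays. This rise was at least 145-fold, with no overlap (log2 difference 7.55 with SE 0.2, adjusted p 5.08e-09). Sema5b read 6.4, 6.3 and 5.49 in ES cells against 11.72, 12.19 and 11.58, a rise of 54.5-fold (log2 difference 5.77 with SE 0.28, adjusted p 1.29e-07). Sema3e went down, from 9.88, 10.32 and 11.04 in ES cells to the 2.59, 3.65 and 5.46 given above. The fall was at least 60.8-fold (log2 difference -6.51 with SE 0.63, adjusted p 1.18e-05), and its other 3 probe sets also fell. Fibroblast and mesoderm markers were higher on the ES arrays than on the motor neuron arrays too. Sema3c read 4.54, 7.86 and 7.36 on ES replicates 1, 2 and 3, and fell at least 6-fold to the motor neuron values above (log2 difference -3.47, adjusted p 0.00193). The fall was at least 12.2-fold without ES replicate 1 and at least 3.86-fold without ES replicate 2.

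Of the other ligands, 3 of 3 Slits, 2 of 2 tested netrins and 5 of 7 ephrins rose, beside 25.9% of all genes. Slit3, a Slit also made by mesenchyme, read 2.87, 4.05 and 3.41 in ES cells and rose at least 60.9-fold (log2 difference 6.5 with SE 0.3, adjusted p 8.33e-08). Slit1 read 4.57, 3.09 and 2.17 and rose at least 53.6-fold (log2 difference 6.66 with SE 0.56, adjusted p 4.25e-06). Neither gene overlapped between the groups. Slit2 read 8.12, 10.69 and 9.44 and rose 9.5-fold (log2 difference 3.25 with SE 0.54, adjusted p 0.00044), while its second probe set gave 0.01. Without ES replicate 1 the rise was 6.07-fold, and without ES replicate 2 it was 14.8-fold. Ntn4 read 2.73, 2.72 and 2.77 in ES cells and rose at least 39.1-fold (log2 difference 6.55 with SE 0.21, adjusted p 1.11e-08). Ntn1, at 2.75, 9.03 and 8.45 in ES cells, rose at least 37.6-fold (log2 difference 5.65 with SE 1.3, adjusted p 0.00398). The ES arrays of Ntn1 lay far apart from one another and all below the motor neuron arrays. The rise was 12.6-fold (log2 difference 3.65) without ES replicate 1, at least 72-fold without ES replicate 2 and at least 58.7-fold without ES replicate 3.

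Efnb3, a membrane-spanning ephrin of the midline, had the largest rise of its family. It read 2.17, 3.26 and 3.12 in ES cells against 10.37, 10.05 and 10.27 in motor neuron cultures, a rise of at least 75.0-fold (log2 difference 7.38 with SE 0.3, adjusted p 4.32e-08). Efna3 read 5.33, 5.13 and 5.88 against 8.93, 8.89 and 7.85. It rose 8.62-fold without overlap (log2 difference 3.11 with SE 0.35, adjusted p 3.29e-05), but its second probe set gave -1.11 without a call. Efna5, a repellent of Epha4-bearing motor axons, read 4.07, 8.12 and 8.91 against 9.68, 10.08 and 9.82. The ES arrays spread over more than the distance between the groups, and the difference was 2.83 (SE 1.0, adjusted p 0.0299). It was not called when any 1 motor neuron array was left out (2.72 to 2.92) or when the Cdx2/FGF arrays were (adjusted p 0.0784). Without ES replicate 1 the difference was 1.35 and without ES replicate 3 it was 3.76, both called. A second probe set with an ES mean of 2.21 gave 6.5.

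Of the receptors, 5 of 8 plexins and neuropilins, 4 of 9 Eph receptors, and 2 of 3 tested Dcc and Unc5 genes rose. The share over all genes was 25.9%. Dcc and Epha3, which are among these, exceeded 4 in motor neuron cultures alone and so had to differ to be tested. Epha4 had no call through its probe set of highest mean, while 3 others were called higher, at 6.42, 5.8 and 3.98. Unc5a read 4.55 on all 3 ES arrays and rose 232-fold (log2 difference 7.86 with SE 0.17, adjusted p 2.26e-09), the largest difference of the 48 genes in this comparison. These 3 ES values were identical to 6 decimals, so part of the small spread behind the SE is not a measured one. Whether 4.55 is a measured level was not tested, and the fold depends on it. Plxna2, a receptor of class 3 and class 6 semaphorins, read 4.85, 3.54 and 5.79 against 9.38, 10.38 and 10.43. It rose at least 36.3-fold (log2 difference 5.34 with SE 0.54, adjusted p 1.51e-05), and its other 3 probe sets also rose. Plxna3 read 2.22, 4.04 and 2.22 against 7.8, 7.89 and 7.36, and rose at least 12.7-fold (adjusted p 1.08e-05). Plxnb1, a receptor of Sema4d, read 5.78, 5.62 and 7.32 against 9.1, 9.52 and 9.25, and rose 8.26-fold (adjusted p 0.000114). None of the 3 plexins overlapped between groups, which was a condition for naming them. Epha2 fell from 8.19, 9.66 and 9.22, by 25.3-fold (log2 difference -4.66 with SE 0.36, adjusted p 2.51e-06). Ephb4 rose from 5.65, 6.51 and 6.84, by 4.53-fold (log2 difference 2.18, adjusted p 0.000391), and Epha3 from 2.17 on each ES array, by at least 3.43-fold (adjusted p 0.000474), with the same spread over motor neuron arrays as above. Robo1, at 11.41, 11.65 and 11.5 in ES cells, fell 4.64-fold (log2 difference -2.21 with SE 0.22, adjusted p 1.6e-05).

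Probe sets of a gene did not always agree. Of 26 genes with several tested probe sets, 18 had the same call in all of them between the day 5 groups and 16 between motor neuron cultures and ES cells, and 0 and 3 were called both ways. The 3 genes were Sema4b, Efnb2 and Sema3c. For Sema4b the probe sets read 12.34 and 2.98 in the mean of ES cells and 10.1 and 9.16 in that of motor neuron cultures, with differences of -2.24 and 6.18. Efnb2 had differences of 0.57, -1.39, 6.03 and 5.38 in its 4 probe sets. Sema3c had -3.47 and 1.09, the second from a probe set whose means of 2.35 and 3.44 were both under 4. Which probe set of such a gene follows its RNA was not tested, and the ES direction of these 3 genes depends on it. Of the tested probe sets over 4 in the mean of a group, 5 in ES cells, 4 in motor neuron cultures and 7 in Cdx2/FGF cultures held values identical to 6 decimals on at least 2 of the 3 arrays.

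**Figure D5:**
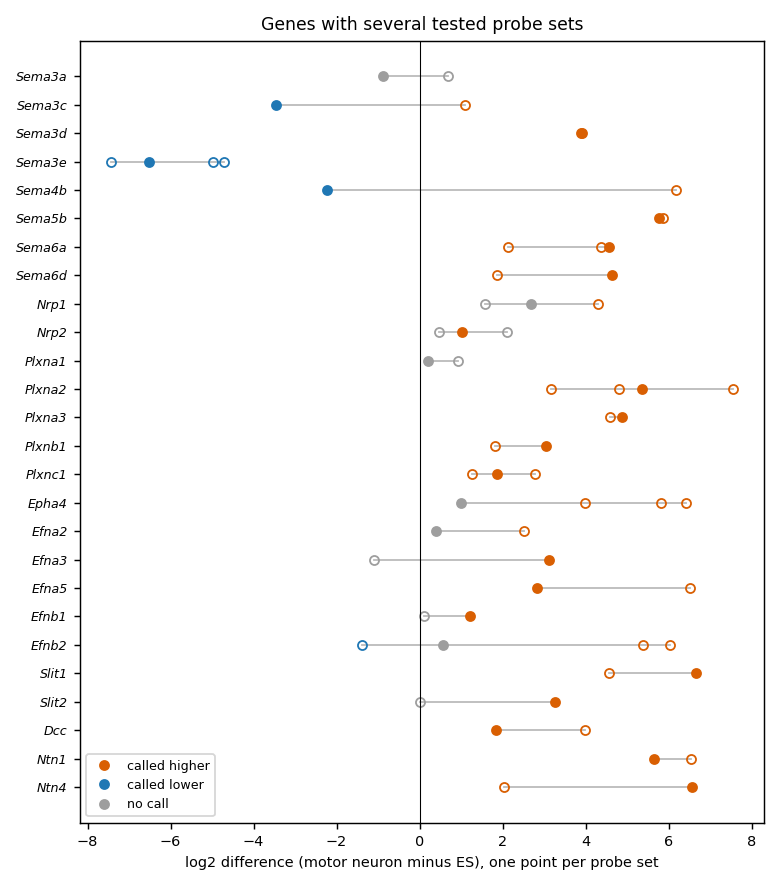
Log2 difference (motor neuron minus ES, x axis) of each tested probe set of the 26 genes with several, 1 point per probe set, coloured by call. The points of Sema4b and Efnb2 lie on both sides of 0, while those of Sema3e lie between -7.43 and -4.71.

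Against ES cells, 27 of the 48 genes were higher in the Cdx2/FGF cultures and 4 were lower, the median difference being 1.88. Of all genes tested, 25.4% were higher and 27.2% lower, and the median was 0. The 3 comparisons share their arrays, so their counts are not independent. Median centring moved the all-gene median to 0.43 and the share of higher calls from 48.3% to 63.1%, and gave 31 and 3 genes. The genes lower than in ES cells were Robo1 (-3.88), Sema4d (-2.76), Sema4b (-2.38) and Epha2 (-1.42). Sema4b was called higher instead with its second probe set (5.68) and with the mean of its probe sets (1.65). Sema4d lost its call with the mean (-0.77), and Epha2 with median centring (-0.99). Sema3e read 9.95 to 10.34 in Cdx2/FGF cultures and 9.88 to 11.04 in ES cells, with overlapping arrays and a difference of -0.25 (SE 0.63, adjusted p 0.746). Its other probe sets gave -0.85, 1.4 and 1.19, and only that at 1.4 was called (adjusted p 0.00778). Slit2 also overlapped with ES cells, at -0.84 (SE 0.54, adjusted p 0.188), but its second tested probe set was called lower, at -4.47 (adjusted p 0.000149). Plxnc1 at 0.03 (SE 0.36, adjusted p 0.957) and Sema3d at 0.52 (SE 0.43, adjusted p 0.305) overlapped too. A p above the threshold does not show that these levels were alike. Unc5b, Sema3a and Sema3b were higher than in ES cells, by 2.79, 4.4 and 3.84 (adjusted p 4.7e-05, 0.000144 and 4.14e-06). Of these, Sema3a passed the filter only through its Cdx2/FGF arrays. Slit1, under 4 on 2 of the 3 ES arrays, was at least 139-fold higher than in ES cells (adjusted p 1.43e-06).

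Other genes of the same pathways were counted in 4 lists for the Cdx2/FGF against the motor neuron cultures, with probe sets chosen as above. Genes over 4 in a single group were kept in these counts, as in the shares of all genes. Of 17 tested genes of semaphorin and plexin signalling, 3 were higher and 5 lower, where 11.1% and 8.53% of all genes were. Cntn2, an axonal adhesion molecule, read 12.83, 12.66 and 12.75 in motor neuron cultures against 8.22, 6.99 and 7.18 in the Cdx2/FGF cultures, a fall of 39.0-fold (adjusted p 2.55e-06). L1cam, the co-receptor of neuropilin 1, fell at least 26.0-fold (adjusted p 4.08e-06). Of 18 genes of Eph and ephrin signalling, 1 was higher, Sipa1l1 (1.1), and 1 lower, Anks1 (-1.04). Of 17 genes of Slit, Robo and netrin signalling, 1 was higher, Dock1 (2.59), a guanine nucleotide exchange factor downstream of Dcc, and 1 lower, Nell2 (-2.58), a ligand of Robo3. Of 19 genes of other guidance cues, 4 were higher and 7 lower. Ntng2, a membrane-anchored netrin-like protein, read 8.94, 8.91 and 8.75 against 2.24, 2.21 and 2.21 and fell at least 29.2-fold (adjusted p 7.04e-08). Ntng2 exceeded 4 in the motor neuron cultures alone and so had to differ to be tested. L1cam exceeded 4 on 3 motor neuron, 2 ES and 0 Cdx2/FGF arrays, and so also passed only through the motor neuron arrays. Alcam, an adhesion molecule of motor axons, fell at least 20.9-fold (adjusted p 1.52e-05). The medians of the 4 lists were -0.14, -0.24, -0.15 and -0.21, close to the -0.15 of the guidance genes and beside 0.04 for all genes.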

How the data were processed

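Values were read from the series' table of 45101 probe sets, in which the authors deposited log2 expression levels. The submitters' processing notes list GCRMA and limma and give no version. No source states the scale, which was taken as log2 from the range of values, as they ran from 2.165 to 16.12, and no further normalization was applied. As a method, GCRMA corrects for background and normalizes between arrays, and values near its lower limit have no order. RNA was amplified with a NuGEN Ovation kit, per the labels' protocols. For arrays, their number limits the precision.

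Probe sets were named through the platform's annotation: 34958 had 1 symbol, 932 several and 9211 none, and 34754 matched the GRCm38.p6 gene table with 0 symbols updated. Probe sets with several symbols or none were not used. Promoter sequences were matched by symbol for 58 of the 69 gene names.

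Group means were fitted with limma 3.58.1 in R 4.3.3 (lmFit, then eBayes with an intensity trend) on all 9 arrays with 6 residual degrees of freedom, over the 21557 probe sets above 4 on at least 3 arrays. Adjustment was by Benjamini-Hochberg over these. SE is from this fit. Folds are given as lower bounds, with values under 4 raised to 4, where arrays of the dimmer group were under 4; the rule covered all 3 arrays, and its extension to fewer was chosen after values were seen. Level sums of a marker list are log2 of summed linear levels.

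Genes named with values on each array were, per family and for each of motor neuron against ES cells and Cdx2/FGF against motor neuron cultures, up to 3 called genes without overlap and with the largest difference, and up to 2 per pathway list. For genes named by this rule, the lack of overlap was a condition of the choice and not a finding. The members and lists were chosen with earlier results of these data known. On simulated data with 200 changed of 21557 probe sets, 79% of log2 changes of 2 and 96% of changes of 4 were recovered for the day 5 comparison, 76% and 98% for motor neuron against ES cells, and 72% and 97% for Cdx2/FGF against ES cells; 6, 7 and 4 unchanged probe sets were called and 0 had the wrong direction. The simulated noise was independent and normal, with a spread per probe set that all groups shared and no lower limit. In the data the median standard deviation of tested probe sets was 0.402 in ES cells and 0.121 in Cdx2/FGF cultures. The recovery rates may therefore not hold for the data. Alternatives covered scaling, filters, variance priors, probe set choice, array weights, the replicate number as a block and leaving out each array.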

Additional observations from a re-analysis of the deposited data

How the results depend on the processing

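The counts of called guidance genes stayed within 1.5 times of the values above under all 24 alternatives, apart from 3. The count lower in motor neuron cultures than in ES cells went from 7 to 4 with probe sets averaged per gene and to 3 with the second probe set, and that lower in Cdx2/FGF cultures than in ES cells from 4 to 2 with the second probe set; fewer genes, 42 and 38, were tested in these. Leaving out each array in turn gave 8 to 12 higher and 11 to 13 lower between the day 5 groups, 25 to 30 and 6 to 8 for motor neuron against ES cells, and 26 to 29 and 4 to 6 for Cdx2/FGF against ES cells. With the replicate block the counts were 9 and 12, 29 and 7, and 27 and 4. Deviations of arrays with the same number correlated at -0.03 to 0.11, not all over 0.1, and the numbers were not taken as pairs. In 12 of 18 cases an array correlated best with its own number in another group, a hint from the data and not from the design.

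Of 88 calls of single genes, 56 kept call and direction in every alternative in which they could be tested: 14 of 21 between the day 5 groups, 22 of 36 for motor neuron against ES cells and 20 of 31 for Cdx2/FGF against ES cells. Direction reversed 8 times, always with a change of probe set. Against ES cells, Sema4b became 6.18 (second probe set) and 1.97 (mean) for motor neuron cultures, then 5.68 and 1.65 for Cdx2/FGF cultures. With the second probe set, Efna3 became -1.11 and -0.39 in these 2 comparisons, Sema3c 1.09 in the first and Efnb2 -0.35 in the second. Which probe set is right was not tested. Arrays left out ended further calls against ES cells: Efna4 (ES replicates 2 and 3, each motor neuron array, Cdx2/FGF replicates 1 and 2), Nrp2 (ES replicates 1 and 3, motor neuron replicates 1 and 2), Epha1 (ES replicate 2) and Sema6b (motor neuron replicate 1), and Sema3c in Cdx2/FGF against ES cells (each Cdx2/FGF array).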
